A study of Homo sapiens with 12 samples.

Results

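Distal open regions that every library of a series had in common, chosen by the presence of a called peak in each, were examined across 3 human acute myeloid leukaemia (AML) lines. Called peaks on chromosomes 1 to 22 were merged wherever they overlapped by at least 1 bp, which gave 328658 regions from 12 libraries. A region was taken when each of the 12 peak lists held a peak in it and when it lay more than 10 kb from every annotated start site of a protein-coding or long non-coding RNA (lncRNA) gene. The rule found 5697 regions, of 22845 regions open in all 12 libraries and 170070 distal regions open in at least 1. Open chromatin had been profiled with ATAC-seq of whole cell populations, where Tn5 transposase cuts and tags accessible DNA, on cells that had been frozen before their nuclei were isolated. MLL1 (KMT2A) is rearranged in MOLM13 and MV4-11, and OCI-AML3 carries mutant NPM1. The 6 groups were MOLM13 with VTP50469 and MOLM13 control, MV4-11 with VTP50469 and MV4-11 control, and OCI-AML3 with VTP50469 and OCI-AML3 control, with 2 libraries in each. VTP50469 blocks the binding of the adaptor protein menin to MLL1, and it was given at 500 nM for 16 h. Each genotype of NPM1 or MLL1 is represented by 1 or 2 established lines, so a difference between lines cannot be told apart from a difference of genotype. Replicates are not stated to be separate cultures, so p-values measure only the spread between these libraries.

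Open chromatin far from start sites marks enhancers, which bind sequence-specific transcription factors and act on promoters over a distance, and insulator sites, where CTCF halts the loops of DNA that cohesin extrudes. Enhancers differ widely between cell types, whereas promoters of broadly used genes and many CTCF sites are open in most cells. Genes read by RNA polymerase III, such as those of tRNAs, also sit in open chromatin and are not among the start sites that the rule used.

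Among the distal regions open in all 12 libraries, 2 overlapped a microRNA gene, and their mature RNAs are shown because these are small-RNA products encoded inside members. The region chr1:148388172-148389137 (hg38, 966 bp, between genes) contains MIR6077 on the plus strand at chr1:148388282-148388363. The region chr15:63870637-63871020 (384 bp, 36.7 kb from the start of HERC1) overlaps MIR422A on the minus strand at chr15:63870930-63871019. Sequences are from RefSeq on GRCh38.p14, written 5′ to 3′, with the seed (bases 2 to 8), which pairs with target RNAs, in capitals.
hsa-miR-6077: gGGAAGAGcuguacggccuuc
hsa-miR-422a: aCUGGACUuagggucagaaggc
The seeds differ. The MIR6077 region had a median fold over local background of 10.4 (7.90 to 14.1 over the 12 libraries) and the MIR422A region one of 6.57 (4.71 to 13.3). Neither was called in a comparison of lines (limma, adjusted p from 0.057 to 0.9).

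The libraries held 68674 to 145572 peaks, most in MV4-11. Members took 4.60% to 9.62% of the autosomal peaks of a library. The reads over a member's summit, worked back from the deposited fold and p, had medians of 14 to 20 in MOLM13, 24 to 28 in MV4-11 and 14 to 16 in OCI-AML3, over a local background of 0.866 to 1.5 reads. No member had been called with fewer than 4 reads, so a distal site weaker than this would not have been seen, and its absence from a list does not show that it was closed. Myeloid identity was checked at promoters. SPI1, PTPRC, LYZ and CEBPA had a promoter peak in all 12 libraries, MPO in 8, CSF3R in 7, ITGB2 in 4 and CD33 in 1. Among promoters of other cell types, those of CD3E, MS4A1, ALB and APOA1 had none, those of CD3D, HBB, SYT1, NEFL and CD79A had peaks in 1 to 7, and that of CD8A in 12.

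Regions open in more libraries were less often distal, apart from 5 libraries (49.2%) against 4 (49.1%). Of the 182407 regions open in 1 library 57% were distal, of those open in 11 libraries 42.5%, and of those open in all 12 24.9%. Promoter regions, within 1 kb of a start site, made up 10.6%, 22.8% and 53.8%. Distal regions widened over the same range, with a median of 94 bp when open in 1 library, 506 bp in 11 and 614 bp in 12. Presence in 12 libraries chose the members, so these shares describe the rule and carry no test.

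**Figure D1:**
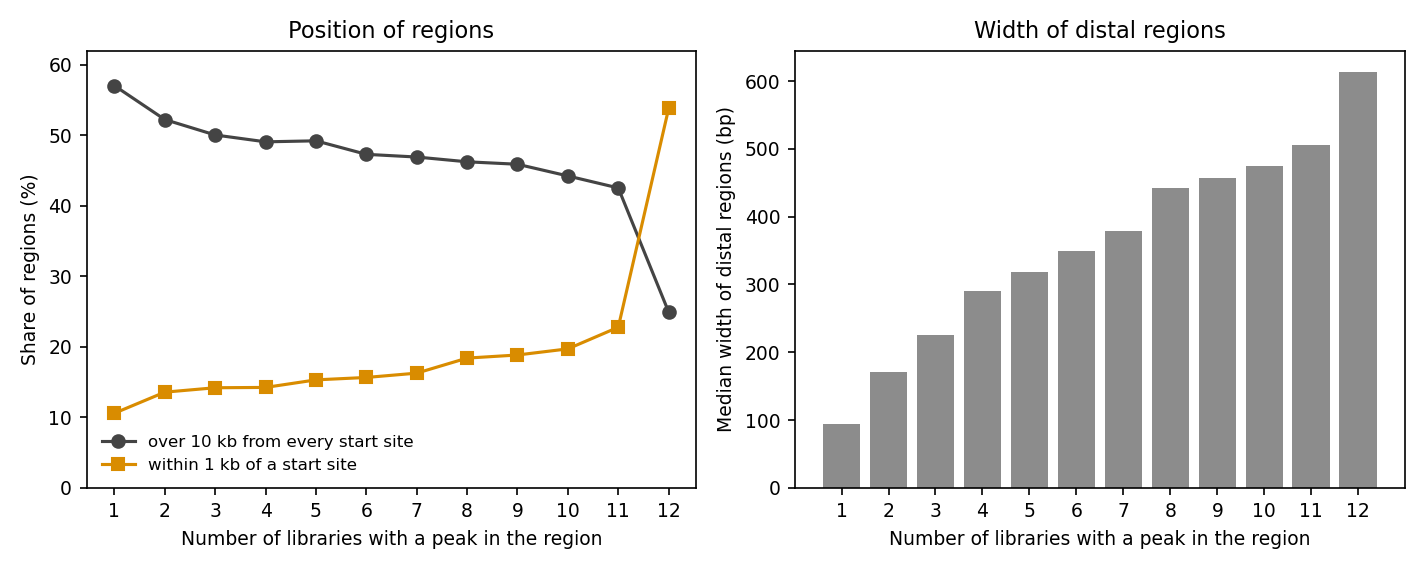
Merged regions by the number of libraries (1 to 12) with a peak in them. The left panel gives the share of regions (%) over 10 kb from every start site (circles) and within 1 kb of one (squares), and the bars of the right panel the median width of the distal regions (bp); the distal share falls to 24.9% and the width reaches 614 bp at 12 libraries.

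The members were spread over gene bodies and intergenic DNA. Of the 5697, 2224 (39.0%) lay inside a protein-coding gene, 611 (10.7%) inside an lncRNA gene only, and 2862 (50.2%) between genes. Among the 164373 distal regions open in 1 to 11 libraries the shares were 40.5%, 10.9% and 48.6%. The nearest start site was 23892 bp away at the median, and the nearest protein-coding one 38051 bp. In 2317 members (40.7%) the nearest start lay over 10 to 20 kb off, in 2246 (39.4%) over 20 to 50 kb, in 822 (14.4%) over 50 to 100 kb, in 247 (4.34%) over 100 to 200 kb, and in 65 (1.14%) further still, up to 798737 bp. The shares of other distal regions in these bins were 33.7%, 38.2%, 17.7%, 7.96% and 2.54%.

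At the edge of the rule, members and excluded regions lay a few bases apart. Just inside were chr1:67532371-67532850 (10004 bp from LINC01702), chr5:178164053-178164629 (10005 bp from its nearest start) and chr5:132437422-132438124 (10005 bp from LINC02863), with median folds of 6.75, 11.5 and 8.97. Just outside were chr21:34570176-34570622 (9997 bp from RCAN1), chr3:187986404-187986951 (9997 bp from LINC01991) and chr5:17665841-17666620 (9992 bp from H3Y1), with 7.47, 6.93 and 8.96.

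Chromosome 8 held the most members, 563, or 3.88 per Mb and 37.2% of its 1513 regions open in all 12 libraries. Chromosome 1 held 544 (2.19 per Mb) and chromosome 6 held 510 (2.99 per Mb), whereas the gene-dense chromosomes 19 and 22 held 59 and 35. Members were 5.90% of the regions open in all 12 libraries on chromosome 19. Set against all distal regions of a chromosome, those of chromosome 8 were open in all 12 libraries in 3.30%, those of chromosome 17 in 5.05% and those of chromosome 13 in 2.23%. The number of copies of a chromosome in each line was not measured here.

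Most members stood alone. The distance between neighbours had a median of 214 kb, 495 neighbouring pairs (8.72%) lay within 12.5 kb of each other, and 718 (12.7%) were over 1 Mb apart. Joined at 12.5 kb, the members formed 4769 single regions, 383 pairs, 41 groups of 3, 7 of 4, 1 of 5 and 1 of 6. The group of 5 was at chr8:134021431-134044119, nearest to ST3GAL1, a sialyltransferase gene. Groups of 4 included those next to RCSD1, PTMA, HDAC4 (a histone deacetylase) and IL12A with SCHIP1. The group of 6 was the one in PCBD2 described next.

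The members with the highest significance in their weakest library were not typical of the class. The first 6 lay in a stretch of 3.887 kb inside PCBD2, at chr5:134924506-134928392, where RefSeq annotates pseudogenes of the mitochondrial genes for NADH dehydrogenase subunits (MTND6P4, MTND5P11, MTND4P12 and MTND4LP30). Their local background had medians of 71.3 to 156 reads, whereas the median over all members was 1.08, and their median folds were only 3.95 to 8.05. In chr5:134925161-134925761 the fold was 7.63 and 7.61 with VTP50469 and 7.59 and 7.54 in controls of MOLM13. MV4-11 had 7.75 and 8.45 with the drug, 8.10 and 8.19 without, and OCI-AML3 8.29 and 8.0 with it, 8.20 and 8.25 without. The 12 values thus lay within 7.54 to 8.45, and the lowest −log10 q was 544. Reads from mitochondrial DNA and from these nuclear copies cannot be told apart in peak lists, and their part in these values was not tested. In all, 19 members had a median background over 5 reads, 8 of them on chromosome 8.

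The next 4 had folds far above the median member. The region chr3:93470362-93470788 (427 bp), 415.6 kb from PROS1, the gene of the anticoagulant protein S, had 32.7 and 33.1 with VTP50469 and 34.2 and 32.5 in controls of MOLM13. MV4-11 had 38.2 and 31.0 with the drug, 32.1 and 32.6 without, and OCI-AML3 32.3 and 38.4 with it, 39.0 and 32.4 without. The other 3 were chr6:61574188-61574289 (102 bp, in KHDRBS2, 24.4 to 36.1), chr12:41363635-41363725 (91 bp, in PDZRN4, 23.8 to 32.3) and chr8:120868637-120869145 (509 bp, nearest coding gene SNTB1, 18.7 to 31.3). The regions near PROS1, in KHDRBS2 and in PDZRN4 were narrower than the lower quartile of member width, 498 bp. Whether the reads at these 4 regions belong to 1 place in the genome only was not tested. None of the 4 was called between lines, beside 19.7% of all regions called in at least 1 pair. The PDZRN4 member had folds of 28.6 to 32.3 in MV4-11 and 23.8 to 27.5 in OCI-AML3, but folds were not normalised between libraries. On scores ranked within each library, described below, the difference was 0.08 ± 0.25 (SE, limma adjusted p = 0.87). The widest members were chr4:116015095-116016841 (1747 bp), chr8:113978965-113980688 (1724 bp) and chr5:163915461-163917158 (1698 bp), 205.8, 301.3 and 206.3 kb from a start site and with median folds of 8.89, 11.3 and 9.81.

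A typical member was weaker than these. The median fold over the libraries was 8.80 at the midpoint of the 5697 members, with quartiles of 7.40 and 10.7 and extremes of 3.95 and 32.7. The weakest library of a member had a −log10 q of 4.95 at the median. The ratio of the highest to the lowest fold of a member was 2.36 at the median. It was under 1.5 in 99 members and over 4 in 156 (2.74%). Regions 1 to 10 kb from a start site, open in all 12, had a median ratio of 2.28, and promoter regions one of 1.77. Folds were not normalised between libraries, and the part of depth and low read counts in this ratio was not tested.

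Members were then compared with the 12295 promoter regions open in all 12 libraries, which passed the same presence rule and differ in position. The distal peaks had a lower fold, a smaller width and a smaller summit distance in bp in every library. The median fold averaged 8.97 ± 1.49 over libraries for members and 10.2 ± 0.987 for promoter regions (SD, n = 12), a difference of −1.24. The median peak width was 331 ± 64.2 bp for members and 588.5 ± 100.9 bp for promoter regions, a difference of −258 bp. The median distance of a library's summit from the region's median summit was 25.6 ± 3.29 bp for members and 29.7 ± 3.52 bp for promoter regions, a difference of −4.08 bp. Each was lower in members in 12 of 12 libraries (exact permutation test over all sign flips, two-sided, p = 0.000488, the smallest it can give, and the same after adjustment over 3 measures). The 12 libraries come from 3 lines and are not 12 independent lines. Among regions with a −log10 q of at least 5 in every library the difference in fold was −0.581 (exact permutation test, p = 0.0137), and against all regions within 10 kb it was −0.734 (p = 0.00146). Regions 1 to 10 kb from a start site, open in all 12, were close to the members, with a median fold of 8.80 for members and 8.42 for these 4853 regions, and a median merged width of 614 and 602 bp. The SD of the summit position over libraries had a median of 41.6 bp in members and 41.7 bp in these regions. Summit distance was not set against peak width, and the part of width in it was not tested.

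**Figure D2:**
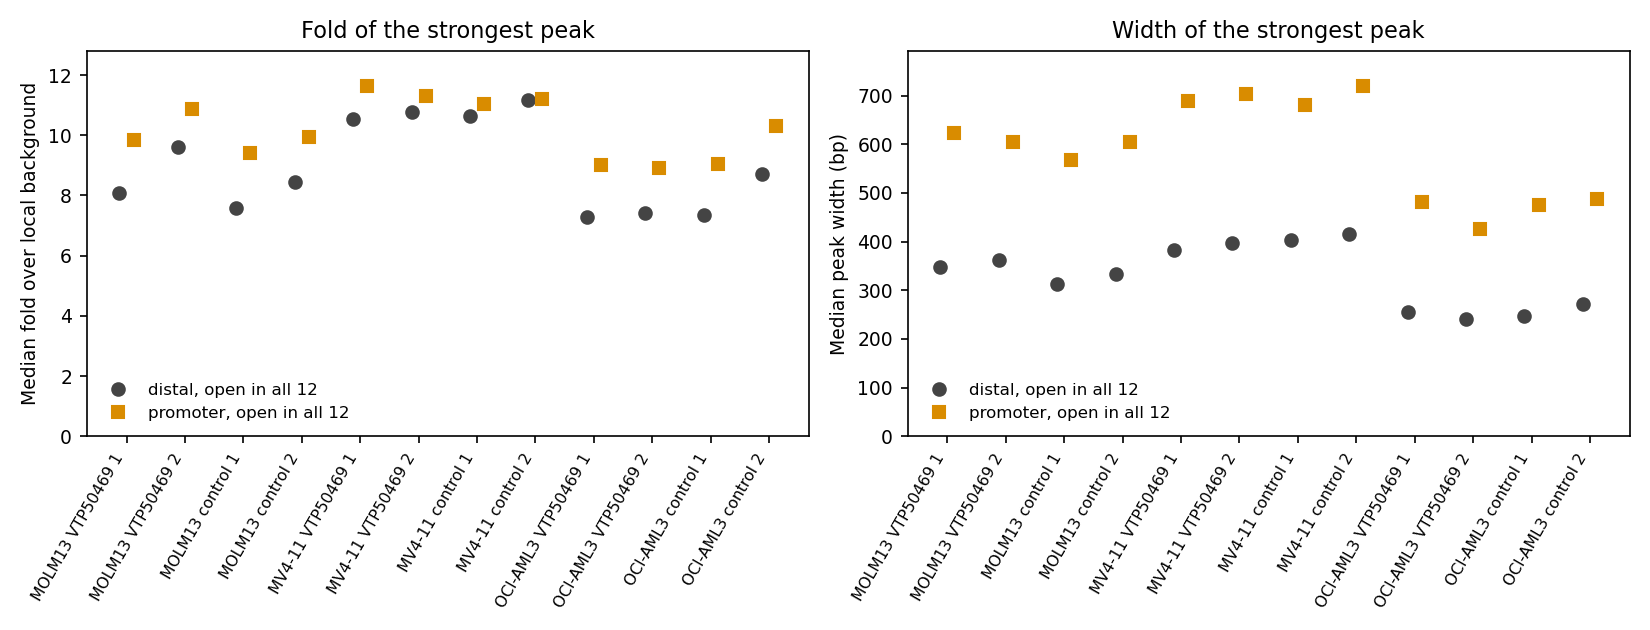
Median fold over local background (left) and median peak width in bp (right) of the strongest peak in each of the 12 libraries, for distal members (n = 5697) and promoter regions (n = 12295) open in all 12. In each library the distal point lies below the promoter point in both panels; the MV4-11 folds are the closest, with 11.16 and 11.21 in the second control.

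The rank order of the members by fold separated the lines more than that of promoter regions did. Folds were ranked within each library over the 22845 regions open in all 12 and turned into normal scores, on which a difference is called a shift and is in SD units of that library. Across the 5697 members, the correlation of these scores had a median of 0.647 between replicates (6 pairs, 0.598 to 0.733), 0.621 between VTP50469 and control libraries of a line (12 pairs, 0.583 to 0.711) and 0.409 between libraries of different lines (48 pairs, 0.354 to 0.558). Across promoter regions the medians were 0.796, 0.801 and 0.690. These describe agreement across regions that share each library's depth, and regions are not independent replicates.

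Differences between lines were tested for each region with limma, with the 4 libraries of a line, treated and control, set against those of another (moderated test, two-sided, Benjamini-Hochberg over 22845 regions, called at an adjusted p under 0.05). In MOLM13 against MV4-11, 97 members (1.7%) were called higher and 388 (6.81%) lower, where 1.36% and 3.13% of all regions were called. In MOLM13 against OCI-AML3, 392 (6.88%) were higher and 392 (6.88%) lower, with backgrounds of 4.17% and 4.79%. In MV4-11 against OCI-AML3, 749 (13.1%) were higher and 333 (5.85%) lower, with backgrounds of 7.34% and 6.46%. Among promoter regions the corresponding shares were 1.19% and 0.976%, 2.46% and 3.12%, and 3.28% and 6.93%. Members called in at least 1 pair numbered 1634 (28.7%), beside 4491 (19.7%) of all regions and 1688 (13.7%) of promoter regions, and 4063 members (71.3%) were called in none. The called members had median shifts of 1.41 to 1.43 where higher and −1.53 to −1.27 where lower. Among regions 1 to 10 kb from a start site 24.1% were called in at least 1 pair.

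**Figure D3:**
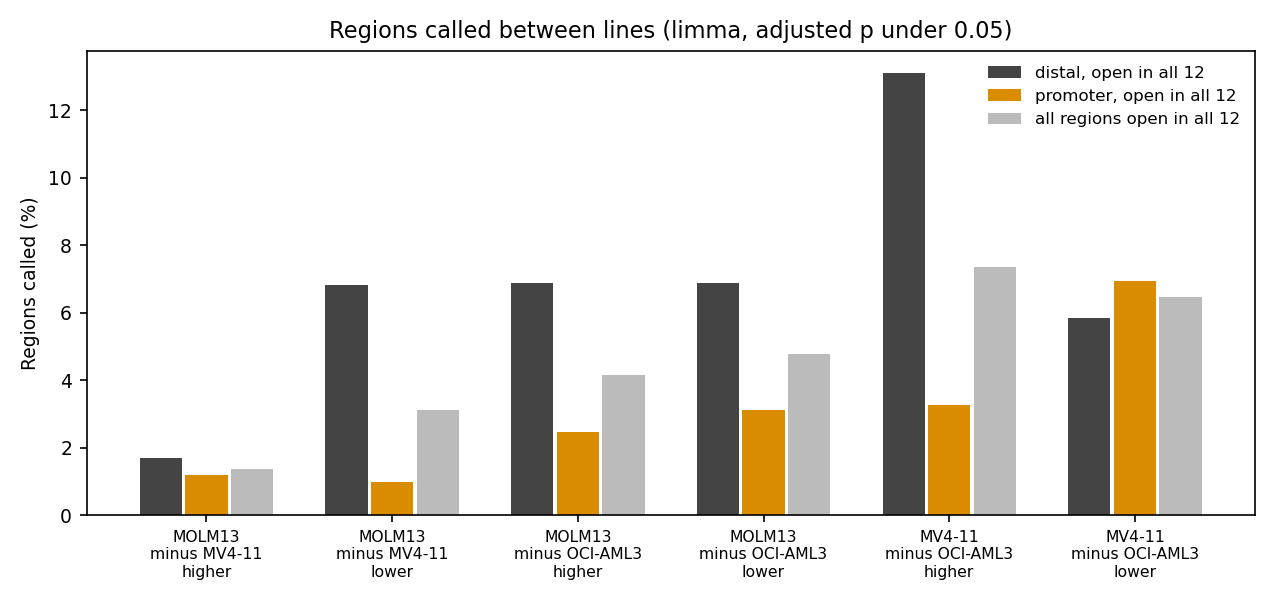
Share of regions (%) called higher or lower between lines by limma at an adjusted p under 0.05, for each pair and direction, in distal members (n = 5697), promoter regions (n = 12295) and all regions open in all 12 libraries (n = 22845). Members stand highest in 5 of the 6 sets of bars, up to 13.1%, and lowest for MV4-11 lower than OCI-AML3, at 5.85%.

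The balance between directions depended on the scale. With ranks of −log10 q in place of fold, the counts higher and lower were 278 and 372 in MOLM13 against MV4-11, 513 and 630 in MOLM13 against OCI-AML3, and 564 and 546 in MV4-11 against OCI-AML3. Scores are relative to all regions of a library: the median shift of members was −0.17, 0.02 and 0.19 in the 3 pairs and that of the other regions 0.12, −0.00 and −0.13. MV4-11 libraries had the most summit reads and peaks, and the part of depth in these counts was not tested. Leaving out any 1 of the 8 libraries of MOLM13 and MV4-11 lowered the 97 calls to 44 to 62, and leaving out any 1 but the second MOLM13 control lowered the 388 to 168 to 241. In the other pairs, the 392 higher calls against OCI-AML3 became 252 without the second MOLM13 control and 209 without the second MOLM13 VTP50469 library, and the 392 lower ones 261 without the first MOLM13 VTP50469 library. The 749 became 449 and 426 without the second MV4-11 control and VTP50469 library, and the 333 became 184 to 207 without any 1 of the MV4-11 libraries.

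By plain separation, all 4 MV4-11 libraries scored above the 8 others in 228 members (4.0%, background 1.95%) and below them in 82 (1.44%, background 2.9%). The 4 MOLM13 libraries stood above in 70 (1.23%, background 1.19%) and below in 144 (2.53%, background 1.6%). The 4 OCI-AML3 libraries stood above in 169 (2.97%, background 3.71%) and below in 232 (4.07%, background 2.67%). The share of members with MOLM13 above was near its background.

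The members highest in MOLM13 relative to MV4-11 included 2 at tRNA genes. At chr6:28474383-28474832, over the threonine tRNA gene TRT-TGT1-1, MOLM13 had folds of 9.78 and 15.3 with VTP50469 and 12.5 and 15.2 in controls, and MV4-11 had 4.80 and 4.91 with VTP50469 and 5.94 and 4.76 in controls. OCI-AML3 had 9.38 and 5.42 with VTP50469 and 6.31 and 8.16 in controls. The 4 MOLM13 libraries lay above all others, and the shift from MV4-11 was 3.0 ± 0.35 (SE, limma adjusted p = 0.00049). At chr21:17454362-17454990, over the glycine tRNA gene TRG-GCC1-5, MOLM13 had 12.3, 15.8, 14.2 and 13.4 and MV4-11 3.79, 7.26, 6.32 and 6.27, treated before control, with OCI-AML3 between at 7.91 to 10.8 (shift 2.93 ± 0.35, limma adjusted p = 0.00059). The third was chr8:121119740-121120355, nearest coding gene SNTB1, a syntrophin of the dystrophin complex. It had 11.4 and 14.2 with VTP50469 and 15.3 and 11.8 in controls of MOLM13, and 4.78 to 5.64 in MV4-11 (shift 2.97 ± 0.37, limma adjusted p = 0.00068).

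The 3 members with the largest negative shifts of MOLM13 from MV4-11 all lay between genes and had their highest folds in MV4-11. Of the 388 members called lower in that pair, 43.8% lay between genes and 42.3% inside a protein-coding gene. At chr21:27769855-27770432, 45.1 kb from LINC00113, MOLM13 had folds of 8.97 and 7.92 with VTP50469 and 4.18 and 5.22 in controls, and MV4-11 had 18.5 and 19.2 with VTP50469 and 21.4 and 19.8 in controls. OCI-AML3 had 7.96 to 12.3, so no library of another line reached the MV4-11 values. The shift was −3.15 ± 0.28 (SE, limma adjusted p = 9.3e-05), and MOLM13 was also called lower than OCI-AML3 (shift −1.34 ± 0.28, limma adjusted p = 0.009). At chr3:127299175-127299853, 11.1 kb from PRR20G, MOLM13 had 3.89 to 7.26, MV4-11 15.4 to 20.2 and OCI-AML3 4.76 to 7.96 (shift −3.32 ± 0.40, limma adjusted p = 0.00058). At chr1:80461902-80462481, 73.3 kb from LINC01781, the ranges were 5.39 to 9.73, 17.2 to 23.8 and 5.35 to 10.6 (shift −3.12 ± 0.37, limma adjusted p = 0.00053).

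The called members with the largest positive shifts of MOLM13 from OCI-AML3 were also high in MV4-11. In chr5:54013482-54014002, inside ARL15, a gene for a small GTPase-like protein, MOLM13 had 15.5 and 25.1 with VTP50469 and 14.1 and 18.3 in controls, and OCI-AML3 had 4.76 and 7.96 with VTP50469 and 5.51 and 7.92 in controls. MV4-11 had 16.0 to 22.9. The shift from OCI-AML3 was 3.03 ± 0.42 in MOLM13 (limma adjusted p = 0.00087) and 2.72 ± 0.42 in MV4-11 (limma adjusted p = 0.0011). The region chr13:48749697-48750310, 43.1 kb from CYSLTR2, a receptor of cysteinyl leukotrienes, had 10.8 to 20.1 in MOLM13, 4.28 to 7.92 in OCI-AML3 and 12.4 to 15.2 in MV4-11 (MOLM13 shift 2.65 ± 0.42, limma adjusted p = 0.0019). The region chr8:118973151-118974016, inside COLEC10, the gene of a collectin, had 12.5 to 17.7 in MOLM13, 3.92 to 9.77 in OCI-AML3 and 13.9 to 17.5 in MV4-11 (MOLM13 shift 2.60 ± 0.42, limma adjusted p = 0.0022). With control libraries alone the COLEC10 region was not called (shift 2.49, limma adjusted p = 0.0865).

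The members lowest in MOLM13 relative to OCI-AML3 included 2 at TP63, which encodes a transcription factor of the p53 family that marks basal epithelium. In chr3:189839493-189840139, inside TP63, MOLM13 had 4.46 and 5.73 with VTP50469 and 4.58 and 4.23 in controls, and OCI-AML3 had 13.7 and 13.5 with VTP50469 and 12.2 and 10.5 in controls. MV4-11 had 5.61 to 7.86, so the OCI-AML3 libraries stood above all others. The shift was −2.91 ± 0.31 (SE, limma adjusted p = 0.0002). In chr3:189563823-189564357, 32.4 kb from TP63, MOLM13 had 3.24 to 6.60, OCI-AML3 9.90 to 13.8 and MV4-11 5.52 to 9.46 (shift −3.24 ± 0.41, limma adjusted p = 0.00055). In chr17:67490924-67491584, inside PITPNC1, which encodes a phosphatidylinositol transfer protein, MOLM13 had 3.77 to 6.28 and OCI-AML3 11.0 to 19.5, with MV4-11 at 7.05 to 11.0 (shift −3.02 ± 0.37, limma adjusted p = 0.00053).

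The largest positive shifts of MV4-11 from OCI-AML3 were close to 3. In chr4:179398477-179399349, 66 kb from its nearest start, with AGA, the gene of a lysosomal amidase, as nearest coding gene, MV4-11 had 20.9 and 18.7 with VTP50469 and 18.3 and 19.4 in controls, and OCI-AML3 had 5.35 and 5.51 with VTP50469 and 4.90 and 7.92 in controls. MOLM13 had 6.22 to 12.8, a range that overlaps that of OCI-AML3. The shift was 3.05 ± 0.29 (SE, limma adjusted p = 8e-05). In chr8:51365960-51366781, inside PXDNL, a gene related to peroxidasin, MV4-11 had 18.1 to 19.2 and OCI-AML3 4.43 to 6.82 (shift 3.08 ± 0.31, limma adjusted p = 0.0001). In chr3:191246103-191246377, inside OSTN, the gene of osteocrin, MV4-11 had 19.0 to 27.9 and OCI-AML3 6.97 to 11.7 (shift 3.04 ± 0.42, limma adjusted p = 0.00067).

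In the other direction, the region chr8:14655643-14656119, inside SGCZ, a sarcoglycan gene, had 7.20 and 4.91 with VTP50469 and 7.21 and 7.73 in controls of MV4-11, and 15.9 and 16.8 with VTP50469 and 15.8 and 15.2 in controls of OCI-AML3. Its shift was −3.25 ± 0.37 (SE, limma adjusted p = 0.00023), and MOLM13 had 4.57 to 12.8, below OCI-AML3 in all 4 libraries. The region chr2:231642639-231643196 had 3.93 to 5.72 in MV4-11 and 8.83 to 13 in OCI-AML3 (shift −2.68). The region chr7:121530231-121531102, nearest coding gene FAM3C, had 6.88 to 9.28 and 12.9 to 16.7 (shift −2.44). The plot of the largest shifts gives each library of the leading member in each pair and direction.

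**Figure D4:**
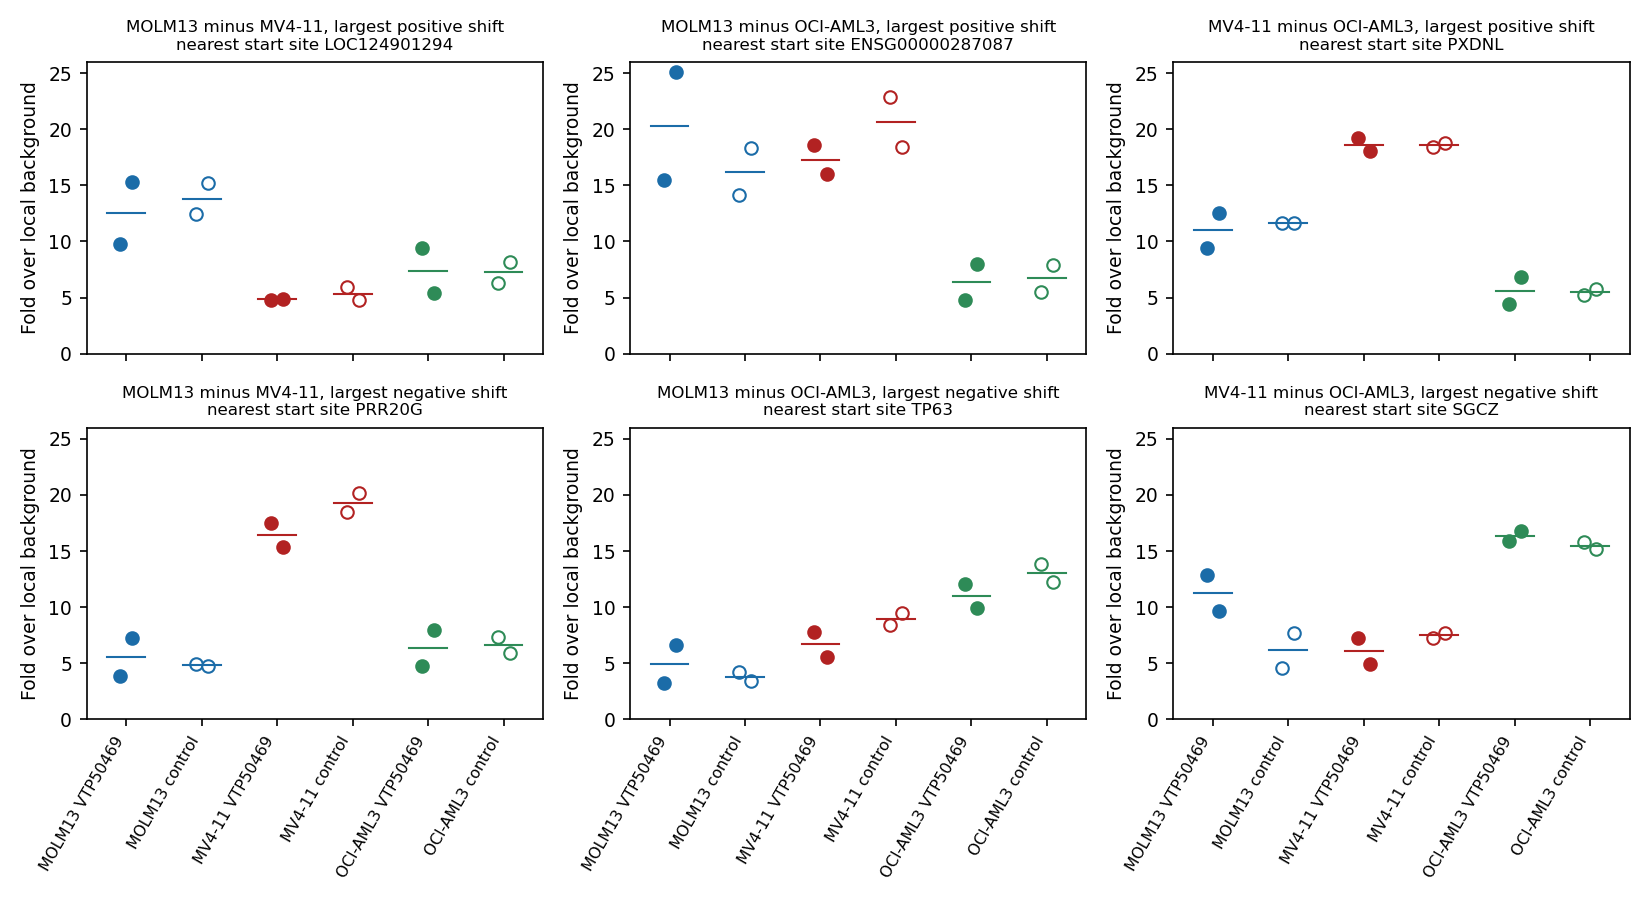
Fold over local background in each of the 12 libraries for the called members with the largest positive and largest negative shift of each pair of lines; filled circles are VTP50469 libraries, open circles controls, and lines the mean of 2. In each panel the 4 libraries of the first line and the 4 of the second do not overlap.

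Shifts between lines also varied by chromosome. In MOLM13 against MV4-11 the median shift of members was 0.08 on chromosome 8, 0.07 on chromosome 13 and 0.06 on chromosome 6, and on the other 19 chromosomes it ran from −0.52 on chromosome 16 to −0.10. Promoter regions of chromosomes 8, 13 and 6 had median shifts of 0.33, 0.29 and 0.31, beside 0.02 (chromosome 22) to 0.31 (chromosome 5) on the others. In MOLM13 against OCI-AML3 the same 3 chromosomes led, with member medians of 0.30, 0.33 and 0.27 beside −0.24 to 0.18 on the others. Promoter medians in that pair were 0.03, 0.19 and 0.03 on chromosomes 8, 13 and 6, and the highest was 0.29 on chromosome 19. In MV4-11 against OCI-AML3 the member medians of chromosomes 8, 13 and 6 were 0.16, 0.31 and 0.13, beside 0.19 over all members. Chromosomes 16 and 22 led there, with 0.46 and 0.41. On chromosome 8, 25 members were called higher and 32 lower in MOLM13 against MV4-11, 88 and 40 in MOLM13 against OCI-AML3, and 95 and 34 in MV4-11 against OCI-AML3. As shares of its 563 members these were 4.44% and 5.68%, 15.6% and 7.10%, and 16.9% and 6.04%, and of the 5134 members elsewhere 1.40% and 6.93%, 5.92% and 6.86%, and 12.7% and 5.82%. Of all 1513 regions on chromosome 8, 3.50% and 3.17%, 11.6% and 5.55%, and 11.6% and 7.47% were called. Of all regions on chromosomes 1 to 22, 1.36% and 3.13%, 4.17% and 4.79%, and 7.34% and 6.46% were called. The fold is taken over local background in the same library, and the part of chromosome copy number in these medians was not tested.

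A small number of members lay over tRNA genes. tRNAs carry amino acids to the ribosome, and their genes have internal promoters read by RNA polymerase III. RefSeq places 31 tRNA genes in 28 members (0.491%), and tRNA genes in 46 (0.0280%) of the distal regions open in 1 to 11 libraries. Of the 28, 14 lie on chromosome 6, 13 of them between 26 and 29 Mb. The group was picked after its values had been seen, and its width, strength and numbers of line calls carry no test. The highest folds were at the arginine tRNA gene TRR-CCG2-1 (chr17:68019558-68020604, 12.8 to 20.0), the asparagine tRNA gene TRN-GTT2-4 (chr13:30673746-30674668, 10.0 to 17.7) and the threonine tRNA gene TRT-TGT2-1 (chr1:222464909-222466023, 11.5 to 17.7). At the leucine tRNA gene TRL-TAA1-1 (chr6:144215526-144216888) the fold was 11.3 to 14.9.

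The median fold at tRNA members in MOLM13 was 10.3 and 11.6 with VTP50469 and 10.8 and 11.3 in controls, where the other 5669 members had 8.07 and 9.62, and 7.57 and 8.45. In MV4-11 the tRNA members had 9.12 and 9.43 with VTP50469 and 9.82 and 10.2 in controls, and the other members 10.6 and 10.8, and 10.6 and 11.2. In OCI-AML3 they had 8.74 and 7.87 with VTP50469 and 8.87 and 8.85 in controls, and the other members 7.30 and 7.41, and 7.35 and 8.72. In MV4-11 the tRNA members were thus below the other members in each library, and in MOLM13 and OCI-AML3 above them. Promoter regions had 9.84 and 10.9 with VTP50469 and 9.41 and 9.94 in controls of MOLM13, 11.6 and 11.3, and 11.0 and 11.2, in MV4-11, and 9.01 and 8.90, and 9.05 and 10.3, in OCI-AML3. Promoter medians thus exceeded those of the other members in all 12 libraries.

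In MOLM13 against MV4-11, 6 of the 28 (21.4%) were called higher and 0 lower, beside 1.61% and 6.84% of the other members, and their median shift was 0.38. In MOLM13 against OCI-AML3 4 (14.3%) were higher and 0 lower (median 0.16), beside 6.84% and 6.91%, and in MV4-11 against OCI-AML3 0 were higher and 3 (10.7%) lower (median −0.30), beside 13.2% and 5.82%. Of all regions 1.36% and 3.13%, 4.17% and 4.79%, and 7.34% and 6.46% were called higher and lower in these pairs. In at least 1 pair 8 of the 28 (28.6%) were called, against 28.7% of the other members and 19.7% of all regions. These counts include members that drew attention to the group, so they are no independent evidence about tRNA genes. The median MOLM13 shift from MV4-11 was 0.69 at the 14 tRNA members of chromosome 6 and 0.06 at the 14 elsewhere, each with 3 called higher (21.4%). Members without a tRNA gene had 0.04 on chromosome 6 (496 members, 2.62% called higher) and −0.20 elsewhere (5173 members, 1.51%). The part of the chromosome in these shifts was not tested. Besides TRT-TGT1-1 and TRG-GCC1-5, the 6 included TRX-CAT1-6 (chr6:27592419-27593438, shift 2.13 ± 0.33 SE, limma adjusted p = 0.0024) and TRE-TTC4-2 (chr1:161421877-161422280, shift 1.46 ± 0.31 SE, limma adjusted p = 0.015), a glutamate tRNA gene.

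**Figure D5:**
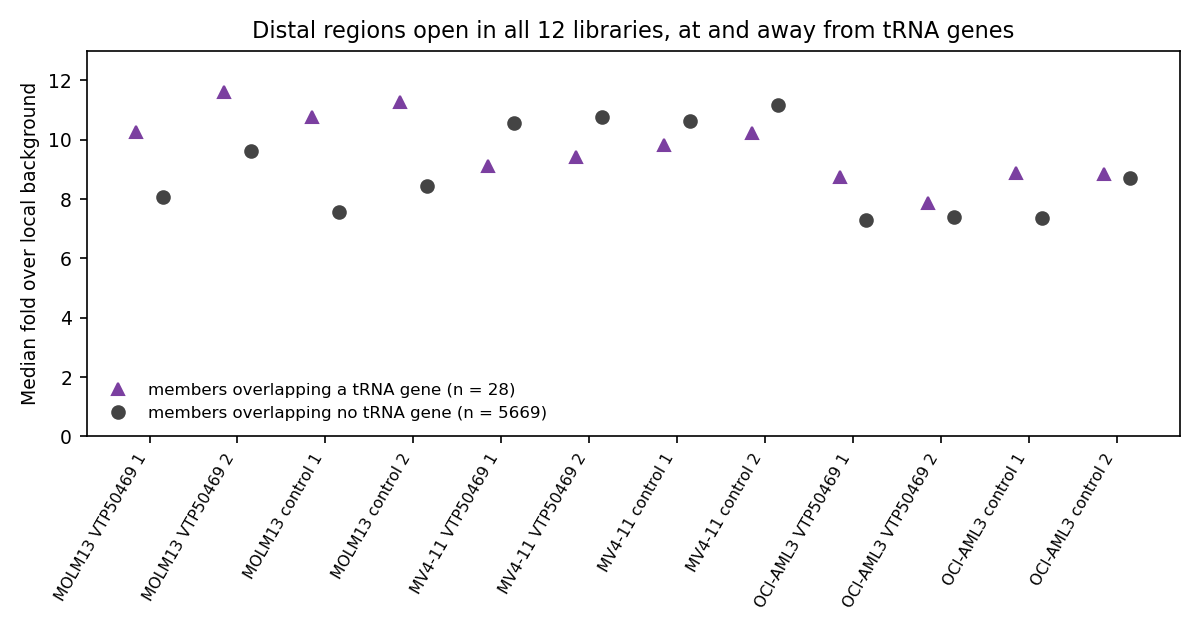
Median fold over local background in each library for the 28 members that overlap a tRNA gene (triangles) and the 5669 that do not (circles). Triangles lie above circles in the 8 MOLM13 and OCI-AML3 libraries and below them in the 4 MV4-11 libraries.

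Other small-RNA genes also lay in members. The vault RNA gene VTRNA1-3, whose product belongs to a large cytoplasmic ribonucleoprotein particle, lies in chr5:140725789-140726519. There MOLM13 had 13.1 and 15.6 with VTP50469 and 14.7 and 11.0 in controls. MV4-11 had 5.40 and 6.14 with the drug, 10.8 and 8.92 without, and OCI-AML3 4.76 and 5.51 with it, 6.12 and 7.26 without. MOLM13 stood above both other lines in all 4 libraries, with shifts of 2.11 ± 0.32 from MV4-11 (limma adjusted p = 0.0018) and 2.18 ± 0.32 from OCI-AML3 (limma adjusted p = 0.0012). Variant U1 genes of the spliceosome lay in 3 members of chromosome 1, RNVU1-15 (median fold 15.4), RNVU1-8 (11.3) and RNVU1-27 (18.8), and such genes have near-identical copies, so their reads may be shared. At chr1:148522564-148522981, over RNVU1-27, MOLM13 and MV4-11 were both called higher than OCI-AML3, with shifts of 1.60 ± 0.26 and 1.33 ± 0.26 (limma adjusted p = 0.0024 and 0.0052).

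VTP50469 changed no member past the threshold. With limma, 0 members were called higher or lower in MOLM13, MV4-11 or OCI-AML3 or in the mean of the 3 lines, and 0.0% of all 22845 regions were called. At an unadjusted p under 0.05, 282 members were higher and 184 lower in MOLM13, 140 and 282 in MV4-11, 265 and 311 in OCI-AML3, and 233 and 290 in the mean. These were 4.95% and 3.23%, 2.46% and 4.95%, 4.65% and 5.46%, and 4.09% and 5.09% of members, beside 3.0% and 2.64%, 1.99% and 2.65%, 3.92% and 3.89%, and 3.1% and 3.31% of all regions. The smallest adjusted p among members was 0.14 (MOLM13), 0.72 (MV4-11), 0.36 (OCI-AML3) and 0.68 (mean). The difference of the treatment shift between lines was called in 0 members for any pair (limma interaction, smallest adjusted p = 0.699, 0.450 and 0.307 over all regions, with 438, 540 and 479 members, or 7.69%, 9.48% and 8.41%, at an unadjusted p under 0.05, beside 4.8%, 6.8% and 5.85% of all regions). Each line had 2 treated and 2 control libraries, and an uncalled member is not shown to be unchanged. Members and the other regions tested all had a peak in each of the 12 libraries, treated and control. A site that gained or lost its peak with VTP50469 was thus left out beforehand, and these counts do not describe such sites.

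Summaries over all members did not pass the tests used. Their mean normal score differed by 0.06 (MOLM13), −0.08 (MV4-11) and −0.01 (OCI-AML3), VTP50469 minus control, with a mean of −0.0118 (exact permutation test over all assignments within lines, two-sided, p = 0.741). The median peak width differed by 32.5, −20.0 and −11.0 bp, with a mean of 0.5 bp (exact permutation test, p = 0.963). The median summit distance differed by −3.5, 0.0 and 1.0 bp, with a mean of −0.83 bp (exact permutation test, p = 0.667). All 3 had an adjusted p of 0.963. The width differences had opposite signs in the lines, so a mean near 0 does not show that widths stayed the same within a line.

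The smallest p in MOLM13 belonged to members inside SLC9A9 and GRAMD1B. In chr3:143814160-143814951, in SLC9A9, a sodium/proton exchanger of endosomes, the fold was 9.32 and 10.0 with VTP50469 and 4.0 and 4.04 in controls of MOLM13. MV4-11 had 9.85 and 9.70 with the drug, 10.4 and 9.62 without, and OCI-AML3 9.02 and 8.39 with it, 6.06 and 7.36 without. Treated and control libraries did not overlap in MOLM13 and OCI-AML3 and did in MV4-11. The MOLM13 shift was 2.34 ± 0.36 (SE, limma adjusted p = 0.14). In chr11:123465729-123466247, in GRAMD1B, a sterol transporter at membrane contacts, MOLM13 had 11.0 and 11.2 with VTP50469 and 3.22 and 3.84 in controls, MV4-11 9.33 and 11.1 with the drug, 10.8 and 11.7 without, and OCI-AML3 8.13 and 4.29 with it, 8.10 and 11.2 without. The MOLM13 shift was 3.25 ± 0.52 (SE, limma adjusted p = 0.14). The fit shares its estimate of the spread over all groups, and without either OCI-AML3 VTP50469 library this member was called (limma adjusted p = 0.0187). With −log10 q in place of fold the SLC9A9 member was called (limma adjusted p = 0.0497).

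Lower values in MOLM13 had the smallest p at chr14:37874564-37875262, 26.9 kb from LINC00517, with 6.97 and 6.59 with VTP50469 and 11.2 and 16.3 in controls (shift −2.19 ± 0.46). Next was chr10:34584116-34584516 in PARD3, a cell polarity gene, with 3.24 and 3.96 with VTP50469 and 8.36 and 7.42 in controls (shift −2.48 ± 0.53, limma adjusted p = 0.5 for both). In MV4-11 the higher ones were chr5:166562138-166562747, with 12.1 and 13.2 against 4.21 and 5.95 (shift 2.47), and chr4:113394796-113395139, 21.4 kb from ANK2, an ankyrin gene, with 14.7 and 15.2 against 6.61 and 9.66 (shift 1.76). The lower ones were chr11:110000018-110000463, nearest coding gene ZC3H12C, with 7.95 and 10.9 against 17.6 and 19.1 (shift −2.28), and chr17:71071875-71072277, 59.0 kb from CASC17, with 7.20 and 4.30 against 12.6 and 16.1 (shift −2.60). All 4 had an adjusted p of 0.72 by limma.

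In OCI-AML3 the higher members were chr8:60396985-60397671 near LINC01301, with 7.49 and 6.54 with VTP50469 and 3.79 and 4.17 in controls (shift 1.99), and chr20:50478164-50478723, 31.6 kb from PTPN1, a tyrosine phosphatase gene, with 10.1 and 10.3 against 3.67 and 6.50 (shift 2.38). The lower ones were chr6:52652124-52652448, with 4.89 and 3.64 against 8.83 and 11.2 (shift −2.36), and chr2:163884477-163884821, nearest coding gene FIGN, with 7.11 and 7.71 against 12.7 and 16.2 (shift −1.71). All 4 had an adjusted p of 0.36 by limma. Over the 3 lines, the FIGN region had a mean shift of −1.13 ± 0.22 and a region in CDH23, a cadherin gene (chr10:71597863-71598675), −0.96 ± 0.22. The SLC9A9 region had 1.05 ± 0.21 and chr3:194745083-194745833 near LINC01968 1.11 ± 0.24 (limma adjusted p = 0.68 for the 4). In CDH23 the VTP50469 libraries had 7.58 and 10.9, 12.2 and 12.7, and 7.37 and 7.58 in MOLM13, MV4-11 and OCI-AML3, and the controls 11.3 and 13.9, 16.2 and 17.5, and 9.73 and 10.7, so the treated libraries were below the controls of their line in all 3. The region was picked for its small p in the mean of the 3 lines, so this shared order is no independent evidence.

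MLL1 and MLL fusion targets are genes on which menin and MLL1 act in such leukaemias. By nearest start site, 18 members belonged to 10 of the 21 listed genes, among them RUNX1 with 5, RUNX2 with 3, CDK6 and IGF2BP2 with 2 each, and MEIS1, PBX3, LAMP5, MYC, SATB1 and ZEB2 with 1 each. By nearest protein-coding gene the list had 38 members at 11 genes. In MOLM13 against MV4-11 0 of the 18 were called higher and 0 lower, in MOLM13 against OCI-AML3 1 and 1, and in MV4-11 against OCI-AML3 1 and 2. Of all members 1.7% and 6.81%, 6.88% and 6.88%, and 13.1% and 5.85% were called, and of all regions 1.36% and 3.13%, 4.17% and 4.79%, and 7.34% and 6.46%. Their median shifts with VTP50469 were 0.15 (MOLM13), 0.19 (MV4-11) and −0.05 (OCI-AML3), and those of all members 0.05, −0.07 and −0.01. The strongest by weakest library were in RUNX2 (chr6:45445528-45446314, fold 9.65 to 17.6), 51.9 kb from RUNX1 (chr21:35932173-35932836, 10.0 to 17.8) and in CDK6, a cell cycle kinase gene (chr7:92809441-92810338, 7.60 to 12.4). The study itself picked some of these loci from the same samples, and their direction is therefore no independent evidence.

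Myeloid transcription factor genes had 13 members by nearest start site, 5 each at RUNX1 and ETV6 and 1 each at GFI1, IKZF1 and FLI1, and 41 by nearest coding gene, 12 of them nearest to KLF4. Of the 13, 0 and 0, 1 and 1, and 0 and 3 were called higher and lower in the pairs MOLM13 against MV4-11, MOLM13 against OCI-AML3 and MV4-11 against OCI-AML3, to be set against the same shares of all members and all regions. The IKZF1 member nearest to its start (chr7:50356292-50357103, 10.6 kb), at the gene of the lymphoid and myeloid regulator Ikaros, had folds of 9.71 to 14.7. At chr21:35508332-35509392, 43.0 kb from a RUNX1 start, MV4-11 was called lower than OCI-AML3 (shift −1.18 ± 0.31 SE, limma adjusted p = 0.023). Stem and progenitor genes had 9 members, with 0 and 0, 0 and 1, and 0 and 0 called, to be set against the same shares. They included MSI2, an RNA-binding protein gene (chr17:57422602-57423097, 7.55 to 18.6), HHEX (chr10:92756962-92757474, 7.93 to 14.1) and PROM1, which encodes CD133 (chr4:16001043-16001872, 6.80 to 11.6).

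Monocyte and granulocyte differentiation genes had 6 members, with 0 and 1, 0 and 0, and 1 and 0 called in the same pairs. Of all regions 1.36% and 3.13%, 4.17% and 4.79%, and 7.34% and 6.46% were called. At such shares a list this short may hold no call, so its loci are not shown to be alike between lines. They included 2 at ITGAM, which encodes CD11b (the stronger at chr16:31301850-31302357, 7.35 to 16.8). Another was near the lipopolysaccharide receptor gene TLR4 (chr9:117725328-117726079, 5.03 to 9.49) and another in CD86, the gene of a costimulatory ligand (chr3:122101610-122102385, 5.80 to 10.7). Menin, MLL1 and elongation complex genes had 6 members, none called: 3 at AFF1, a fusion partner of MLL1, and 1 each at ELL2 and at WDR5 and RBBP5, subunits of MLL complexes. The WDR5 member (chr9:134122937-134123399) had folds of 6.81 to 16.9. CTCF and cohesin genes also had 6, none called, 2 at YY1 and 1 each at PDS5A, PDS5B, MAU2 and RAD21, the last a cohesin subunit (chr8:116887287-116887902, 6.70 to 14.1). Wnt and beta-catenin targets had 3, 2 in TCF7L2 and 1 near MYC. At the MYC member (chr8:127759431-127760583, 20.4 kb from the start, 6.49 to 14.3) MV4-11 was called higher than OCI-AML3 (shift 0.89 ± 0.27 SE, limma adjusted p = 0.04).

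Markers of other cell types had few members: 1 for T cells (near CD5), 2 for B cells (at EBF1), 0 for erythroid cells, 1 for liver (in CPS1) and 4 for neurons, and housekeeping genes had 2 (at TFRC). Some of these were called between lines, beside 19.7% of all regions called in at least 1 pair. At chr3:196096340-196096982, 14.2 kb from TFRC, the transferrin receptor gene, MOLM13 was lower than MV4-11 (shift −1.60 ± 0.34, limma adjusted p = 0.017) and than OCI-AML3 (shift −2.24 ± 0.34, limma adjusted p = 0.0017). In EBF1, at chr5:159039995-159040707, MOLM13 was lower than both (shifts −1.68 and −1.31, limma adjusted p = 0.012 and 0.027). In MAP2, a neuronal microtubule protein gene, the member at chr2:209619681-209620287 was higher in MOLM13 and in MV4-11 than in OCI-AML3 (shifts 1.71 and 2.63, limma adjusted p = 0.0024 and 0.00015).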

How the data were processed

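Peak lists of 12 bulk ATAC-seq libraries were used. Per the labels, the authors aligned to hg38 and their notes list MACS2 2.1.0, Bowtie 1.1.2, Trimmomatic 0.33, bcl2fastq 2.17 and deepTools, while the paper's supplementary methods name TopHat2. Peaks were called in each library, not on pooled libraries, and read shift, duplicates and threshold are not stated. The deposited ratio is the fold of reads at the summit over that library's own local background. Summits also carry a deposited −log10 p and a deposited −log10 q, the deposited score is 10 times the −log10 q, cut to a whole number, and the deposited summit offset is in bp from the peak start. Nothing had been normalised between libraries, and every list ended near a q of 0.05. Summit reads were recovered from the deposited fold (pseudocount 1) and p-value within a tolerance of 0.01, for at least 99.97% of the regions open in all 12 libraries. Such reads are not independent molecules, and sequencing totals are unknown.

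A region took its strongest peak in each library. Start sites (211045) were those of RefSeq genes and GENCODE v44 transcripts on GRCh38; this union was chosen after the counts from both definitions had been seen. For 5606 RefSeq genes with no strand both ends were used. No hg38 genome was used, so no sequence or motif of a member was read. Folds were turned into normal scores within the library and fitted with limma 3.58.1 in R 4.3.3, with 6 groups and no replicate block. Library values were tested by exact permutation in Python 3.11.15. The fit was tested on simulated data.

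Members and gene lists were chosen with earlier results of these data known. Regions named are the 10 with the highest lowest −log10 q, the 3 largest called shifts in each direction per pair of lines, the 2 smallest p per direction for each VTP50469 contrast, the 3 with the highest lowest −log10 q of each gene list, the 3 nearest to the 10 kb threshold on each side, and the 3 widest. Members at small-RNA genes were named after their values had been seen. Lists were MLL1 and MLL fusion targets, myeloid transcription factors, stem and progenitor genes, monocyte and granulocyte differentiation, menin, MLL1 and elongation complex genes, CTCF and cohesin genes, targets of Wnt and beta-catenin, genes used in most cells (housekeeping), and neuron, liver, erythroid, B cell and T cell markers. Alternatives were other distances, start sites, thresholds, overlaps and scales, control libraries alone, each line alone, centring by chromosome, a replicate block and each library left out.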

Additional observations from a re-analysis of the deposited data

Results flagged for a closer look

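The median peak width of the distal members moved in opposite directions in the MLL1-rearranged lines. In MOLM13 it was 348 and 363 bp with VTP50469 and 312 and 334 bp in controls, a difference of 32.5 bp, and in MV4-11 it was 382 and 397 bp with VTP50469 and 404 and 415 bp in controls, a difference of −20.0 bp. All treated libraries of a line lay on 1 side of its controls in both. In OCI-AML3 the widths were 256 and 241 bp with VTP50469 and 247 and 272 bp in controls, which overlap. Promoter regions had median widths of 624 and 605 bp with VTP50469 and 567 and 605 bp in controls of MOLM13. In MV4-11 they had 688 and 703 bp with VTP50469 and 680 and 720 bp in controls. Whether the width differences are particular to distal members was not tested. The difference between the lines was not tested. The median summit reads of members were 16 and 20 with VTP50469 and 14 and 16 in controls of MOLM13, and 24 and 25 with VTP50469 and 25 and 28 in controls of MV4-11; the part of depth in the widths was not tested.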

How the results depend on the processing

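The number of members was 3380 beyond 20 kb, 1134 beyond 50 kb, 2801 with every peak at a −log10 q of at least 5, 8986 with start sites of RefSeq genes alone (chosen after seeing the data), and 5717 to 6317 without 1 library. Line calls are given as higher and lower for MOLM13 against MV4-11, MOLM13 against OCI-AML3 and MV4-11 against OCI-AML3. Regions with a lowest −log10 q of at least 5 gave 32 and 167, 154 and 188, 348 and 139; controls alone, with fewer libraries, 9 and 57, 36 and 46, 106 and 34; −log10 q in place of fold 278 higher, 630 lower and 546 lower, the other 3 counts being within 1.5 times; RefSeq starts alone 146 higher, 597 lower and 545 lower. Without 1 library the ranges were 44 to 103 and 168 to 407, 209 to 356 and 261 to 363, 426 to 750 and 184 to 320. Apart from the definitions' own change in the regions counted, the cause was not tested. For VTP50469 in MOLM13, 1 member was called higher with −log10 q (SLC9A9) and 1 with a lowest −log10 q of at least 5 (chr8:49366701-49367465, limma adjusted p = 0.0371), and 0 to 1 without 1 library (GRAMD1B, without either OCI-AML3 VTP50469 library). In OCI-AML3 0 to 1 was called higher without 1 library (chr16:46390388-46390837, without the first control, limma adjusted p = 0.046). The mean score with VTP50469 reversed to 0.000701 with −log10 q (exact permutation p = 0.991) and ran from −0.032 to 0.00841 without 1 library. Of 579 alternative values of 34 named results, 575 kept their direction and side of the threshold and 0 reversed. The COLEC10 region lost its call with controls alone (2.49, limma adjusted p = 0.0865). The named results had been picked for large shifts or small p in these same libraries, and an uncalled one that stayed uncalled counted as kept. This count therefore does not describe the stability of calls in general, for which the ranges above stand.

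Replicate numbers do not pair the libraries: deviations of equal numbers correlated at 0.050, 0.040 and 0.0091 in MOLM13, MV4-11 and OCI-AML3. With the replicate block the line calls were 99 and 371, 371 and 384, and 755 and 311, 0 members were called with VTP50469, and the mean score of −0.0118 had p = 0.719 (exact sign flips of pairs). CTCF motif windows were not run, for want of an hg38 genome. A member at the median had 14 to 28 summit reads in a library, and the part of depth in the calls was not tested.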

Other observations

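Several coding genes had many distal regions open in all 12 libraries nearest to them. SNTB1 had 13, CSMD3, KLF4, MYC, ST3GAL1 and TRPS1 had 12 each, CSMD1 and JARID2 10, and LPP and SASH1 9. CSMD3, MYC, SNTB1, ST3GAL1, TRPS1 and CSMD1 are on chromosome 8. The 10 members of CSMD1 and the 9 of LPP all lay inside the gene, whereas 0 of the 12 of KLF4, a monocyte transcription factor gene, and 0 of the 12 of MYC lay inside it, at 57.6 to 665.9 kb from the start of KLF4 and 20.4 to 995.1 kb from that of MYC. In all, 3447 coding genes were nearest to at least 1 member, 2225 of them to exactly 1 and 113 to at least 5.

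Variable segments of the T cell receptor beta locus, which T cells join during their development, lay in 3 members: TRBV7-3 (chr7:142384019-142385083, fold 7.83 to 14.4), TRBV13 (chr7:142535139-142535970, 5.28 to 16.8) and TRBV14 (chr7:142587566-142588074, 4.77 to 12.3). None of the 3 was called between lines, beside 19.7% of all regions called in at least 1 pair. HTT-AS, the antisense gene at the huntingtin locus, held 2 members, and at chr4:3062428-3062894 MOLM13 was lower than MV4-11 (shift −1.59 ± 0.31 SE, limma adjusted p = 0.0089) and than OCI-AML3 (shift −1.35 ± 0.31 SE, limma adjusted p = 0.014). These regions were chosen after their values had been seen.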
